A study of Mus musculus with 6 samples.

Results

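The genes described here were those that went from near silence to a measurable level when doxycycline induced Rbfox1 in a human cell line. A gene was taken when its counts summed to at most 60 over the 3 untreated samples and to at least 60 over the 3 treated samples, when the treated sum was at least 3 times the untreated sum, and when every treated sample lay above every untreated sample. HAMP and genes with symbols of the LINC type or of the numbered antisense type (-AS) were left out by name. The rule left 48 of the 58870 genes in the files. The genes were thus chosen by their counts in both groups, so the levels below are a description, and no test of them is used as support.

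The cells were 77-5 cells, a clone of T-REx-293, itself a form of the human embryonic kidney line HEK293 with the tetracycline repressor. All 6 samples were of this clone, and all carried a minigene of mouse Ntrk2 (TrkB) on a bacterial artificial chromosome and an Rbfox1 construct that doxycycline switches on. No doxycycline was given to 3 samples (No Dox, n = 3) and 3 were given it for 48 h (Dox, n = 3), at 0.5 mg/ml per the labels and methods and in micrograms per ml per the figure legends of the study. The Dox samples therefore differed in doxycycline as well as in Rbfox1, and the effects of both cannot be told apart. The labels name mouse as the organism, but the cells and the transcripts counted are human, and nothing in the labels says that replicates came from separate cultures, so that p-values measure the spread between these samples, which may be technical.

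Rbfox1 is an RNA-binding protein of neurons and muscle that binds GCAUG motifs and regulates the choice of exons. It can also affect how much of a transcript is kept, for example where a spliced exon carries a stop codon. A gene with very few reads in a bulk library may be silent in nearly all cells, may be transcribed from a weak or alternative start, or may be part of a longer transcript of a neighbour. In bulk samples, more cells with a transcript and more transcript per cell cannot be told apart.

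Library totals ranged from 59822964 to 65774104 expected counts. The level listed for human RBFOX1 rose from 7.53 ± 0.79 TPM (SD, n = 3) to 188 ± 1.8 TPM, a log2 fold change of 4.55 with an adjusted p of 7.6e-18 by edgeR. These values do not separate the construct from the gene of the cells. TPM is a transcript level that is scaled for length and for the total of a sample. Of 14 genes that mark the HEK293 line, 13 passed the filter on low counts and GAL did not (11 counts in No Dox and 8 in Dox), and the summed level of the list was 1265 to 1278 TPM in No Dox and 1132 to 1174 TPM in Dox. Of all 18264 genes tested with edgeR, 4543 were higher in Dox (24.9%) and 4841 were lower (26.5%). Replicates of a group differed beyond sampling noise, so no library was counted as a repeat of another.

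Few genes met the rule. Of the 58870 genes, 42365 had at most 60 counts over the No Dox samples, and 27434 of these had 0 in all 6 samples. Of the 42365 genes, 518 had at least 60 counts over the Dox samples, and 57 of the 518 had at least 3 times as many as in No Dox. The groups did not overlap for 54 of the 57. The names then took out 6, which were HAMP, LINC00654, LINC00987, ATE1-AS1, MCPH1-AS1 and TRG-AS1. The mirrored rule, with No Dox and Dox exchanged, found 10 genes that went to near silence, among them AGPAT4-IT1 (219 to 27 counts), HAL, which encodes histidine ammonia-lyase (152 to 46 counts), and the odorant receptor gene OR51E2 (107 to 26 counts). The largest ratio of the 10 was that of ARMCX7P, with 61.2, 14.5 and 19.8 counts in No Dox and 0 in each Dox sample.

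**Figure D1:**
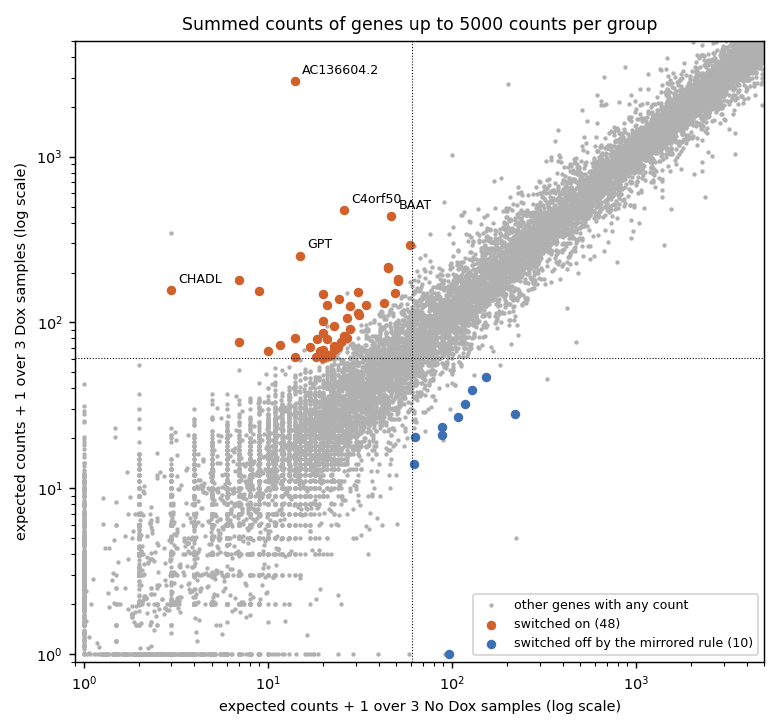
Expected counts plus 1 summed over the 3 No Dox samples (horizontal, log scale) and over the 3 Dox samples (vertical, log scale) for genes up to 5000 counts per group, with dotted lines at 60 counts. The 48 switched-on genes lie in the upper left corner with AC136604.2 at 13 and 2842 counts, the grey point above CHADL in that corner at 2 and 345 counts is HAMP, which was left out by name, and the 10 genes of the mirrored rule lie in the lower right corner.

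The 48 genes were at low levels also in Dox. Their summed counts had a median of 21.5 in No Dox (2 to 58.53) and of 97.5 in Dox (60 to 2842), and 24 of them had under 100 counts over the 3 Dox samples. Their mean level had a median of 0.0967 TPM in No Dox and of 0.573 TPM in Dox, where the median of all genes tested was 10.0 TPM. In Dox 14 of the 48 reached 1 TPM, and 1 of the 48 reached the median of all genes tested. None had a sum of 0 in No Dox, and 7 had 0 in at least 1 No Dox sample. These genes were thus seldom read before induction, but not unread.

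Together the 48 genes had 381, 412 and 366 counts without doxycycline and 2966, 2786 and 3074 with it. Per 1000000 counts of the library this was 5.79, 6.60 and 5.76 in No Dox and 45.7, 46.6 and 46.7 in Dox. A single gene, AC136604.2, held 32.2% of the Dox counts. Without it the rate was 5.76, 6.49 and 5.70 in No Dox and 29.7, 32.7 and 31.9 in Dox. No sample stood apart from the others of its group in these sums.

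The ratio given for each gene is its counts per library total in Dox over the same in No Dox, with a 95% exact binomial interval that covers counting error only. On the log2 scale, with a No Dox sum under 3 counts set to 3, the ratio had a median of 2.12 and ran from 1.59 to 7.78. The median over all genes tested was 0.05. The ratio was at least 10 for 7 genes, at least 5 for 17 and under 5 for 31. In the fit across all genes, all 48 passed the edgeR test in the higher direction, as did 24.9% of all genes tested, and since the same samples chose them nothing is read from that count. Of all genes tested, 27.0% had every Dox sample above every No Dox sample, which the rule required of the 48.

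**Figure D2:**
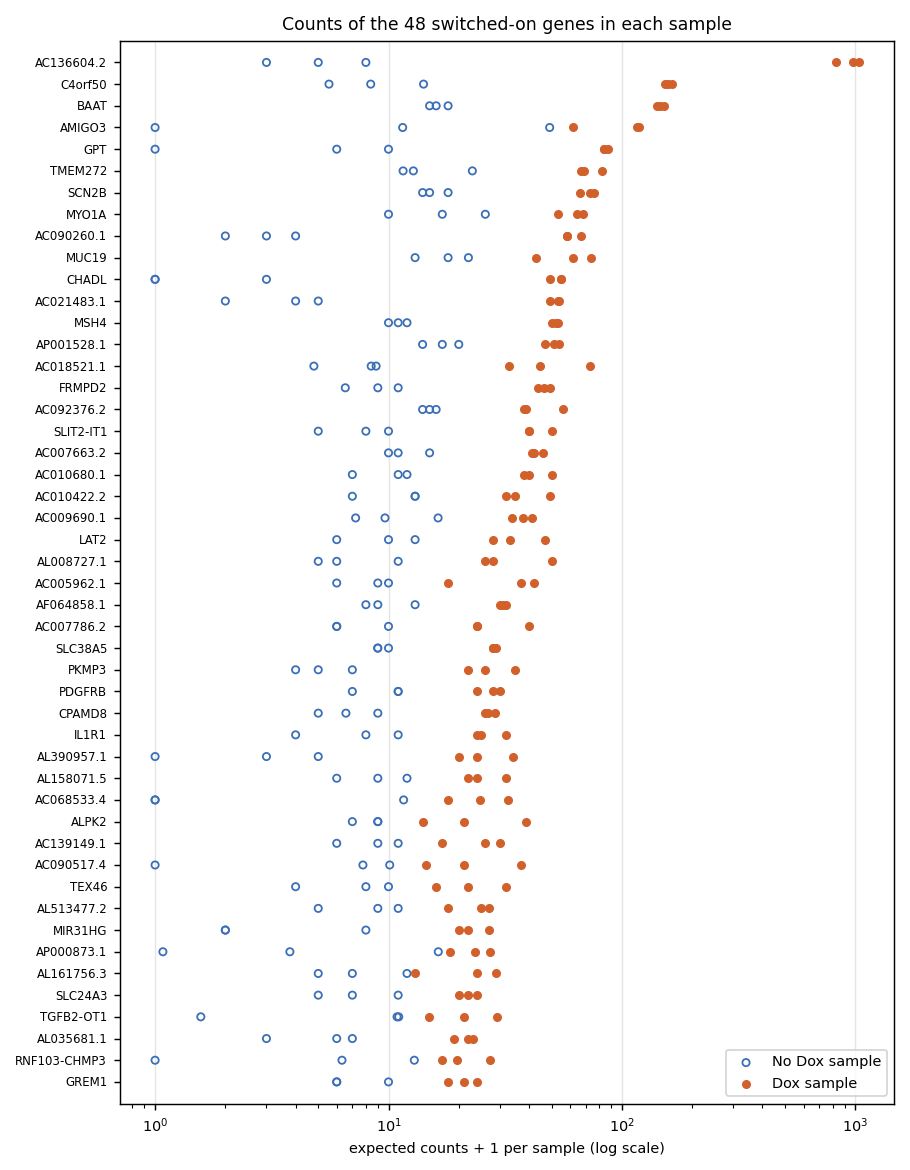
Expected counts plus 1 (log scale) of each of the 48 switched-on genes in each No Dox sample (open circles) and each Dox sample (filled circles), ordered by the summed Dox counts. AC136604.2 stands apart from the others in Dox, with 829 to 1038 counts per sample, and the groups come closest for AL161756.3, with 11 counts in the highest No Dox and 12 in the lowest Dox sample.

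The gene furthest from its No Dox level was AC136604.2 (ENSG00000244945.1), which carries the name of a sequenced genomic clone and a single isoform of 1966 bases. It had 2, 7 and 4 counts in No Dox and 1038, 829 and 975 in Dox, a ratio of 220 (128 to 414). Its level went from 0.0533 ± 0.035 TPM to 12 ± 0.89 TPM. The groups were further apart than for any other of the genes, and among the 48 genes it was the sole one above the median level of all genes tested. The files give it no function, and its neighbour in name, AC136604.3, had 13.6 and 16.4 counts over the 3 samples of No Dox and Dox.

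A pair of enzymes of the liver were among the 12 switched-on genes with the most counts in Dox. BAAT (ENSG00000136881.11) encodes the acyltransferase that joins bile acids to glycine or taurine in hepatocytes. It had 14, 17 and 15 counts in No Dox and 151, 140 and 145 in Dox, a ratio of 9.53 (7.03 to 13.2), and its level went from 0.113 ± 0.015 to 1.12 ± 0.055 TPM. The Dox samples were closely alike, with a coefficient of variation of 3.26%, the lowest of the 48. Of its 2 isoforms, BAAT-201 of 3377 bases held 97.8% of the counts in No Dox and 84.1% in Dox, while BAAT-202 of 2252 bases went from 1.02 to 69.51 counts over 3 samples.

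GPT (ENSG00000167701.14) encodes the cytosolic alanine aminotransferase, which moves the amino group of alanine and is the enzyme read in blood as a sign of liver damage. It had 5, 0 and 9 counts in No Dox and 86, 83 and 83 in Dox, a ratio of 18.1 (10.6 to 33.6, or on the log2 scale 4.18, and 5.08 without No Dox replicate 3), and its level went from 0.0767 ± 0.075 to 1.23 ± 0.096 TPM. The increase came with isoforms that were at or near 0 before. GPT-203 of 1865 bases went from 1.77 to 128.6 counts over 3 samples, or from 12.6% to 51.0% of the gene, and GPT-202 of 1828 bases went from 0 to 108.3 counts. Where isoforms share exons RSEM splits the reads by a model, and these shares are its estimates. The mitochondrial paralog GPT2 did not move with it and fell from 26.4 ± 1.6 to 23.7 ± 2.0 TPM, with an edgeR log2 fold change of -0.19 (adjusted p = 0.00018).

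Channel or transport proteins are encoded by 3 of the switched-on genes. SCN2B (ENSG00000149575.5), an accessory subunit of voltage-gated sodium channels of nerve and heart, had 17, 14 and 13 counts in No Dox and 65, 75 and 72 in Dox, a ratio of 4.85 (3.49 to 6.87). All of its counts lay in a single isoform of 5826 bases, and its level in Dox was 0.287 ± 0.031 TPM. Of other genes for beta subunits, SCN4B rose from 2.02 ± 0.090 to 4.35 ± 0.61 TPM, with an edgeR log2 fold change of 1.15 (adjusted p = 7.4e-09). SCN3B was at 0.867 ± 0.064 and 1.03 ± 0.065 TPM and missed the threshold (edgeR adjusted p = 0.11). Thus SCN2B, which began nearest to silence, was in Dox still less abundant than SCN3B and SCN4B on the TPM scale.

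SLC38A5, a transporter of glutamine and related amino acids, had 9, 8 and 7.99 counts in No Dox and 27, 27.0 and 28 in Dox, a ratio of 3.30 (2.09 to 5.39). Its isoform SLC38A5-213 held 31.8% of the counts in No Dox and 63.8% in Dox. Among the other 10 genes of the SLC38 family, SLC38A1, SLC38A4 and SLC38A9 rose and SLC38A6, SLC38A7 and SLC38A10 fell, with log2 fold changes from -0.59 to 1.43. SLC38A4 was the closest of these to the rule, with 35 counts in No Dox and 98.0 in Dox (edgeR adjusted p = 0.00076). SLC24A3, a sodium and calcium exchanger that also carries potassium, had 10, 4 and 6 counts in No Dox and 19, 23 and 21 in Dox, a ratio of 3.17 (1.89 to 5.53). Its counts were split almost evenly between 2 isoforms, with 10 and 10 in No Dox and 32.63 and 30.37 in Dox. Its relative SLC24A1 fell (log2 fold change -0.62, edgeR adjusted p = 8.8e-08) and SLC24A4 rose (0.43, adjusted p = 0.0015).

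Of the receptor and signalling genes, PDGFRB (ENSG00000113721.14) encodes the beta receptor for platelet-derived growth factor, a tyrosine kinase of mesenchymal cells. It had 6, 10 and 10 counts in No Dox and 23, 29 and 27 in Dox, a ratio of 3.06 (1.94 to 4.96). Its log2 ratio was 1.61 on the count scale and 0.97 on the TPM scale. IL1R1, the signalling receptor for interleukin-1, had 10, 3 and 7 counts in No Dox and 31, 24 and 23 in Dox, a ratio of 3.92 (2.38 to 6.77). LAT2, an adaptor of B cells and mast cells, had 5, 9 and 12 counts in No Dox and 32.0, 27 and 46 in Dox, a ratio of 4.06 (2.62 to 6.5). In each of these genes the groups were apart by 13 counts or more. Of their relatives, PDGFRA rose (log2 fold change 0.42, edgeR adjusted p = 0.018), as did IL1RAP, the partner chain of IL1R1 (0.24, adjusted p = 0.0082), while LAT did not pass the test (adjusted p = 0.24) and the decoy receptor gene IL1R2 had 7 counts in No Dox and 1 in Dox.

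Adhesion or secreted proteins are encoded by 5 of the genes. CHADL (ENSG00000100399.16), which encodes a collagen-binding leucine-rich protein of cartilage, had 0, 2 and 0 counts in No Dox and 54, 54 and 48 in Dox. Its ratio was 78.5, and with 2 counts in No Dox the interval was wide, from 21.4 to 654. The main isoform CHADL-201 of 2530 bases had 0 counts in No Dox and 113.1 in Dox, and both No Dox counts lay in CHADL-203 of 758 bases. CHAD, the gene for chondroadherin itself, had 1 count in No Dox and 3 in Dox.

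AMIGO3, a neuronal adhesion protein with leucine-rich repeats, had the widest range of counts among the No Dox samples. It had 10.5, 48.0 and 0 counts in No Dox and 60.9, 117 and 115 in Dox, a ratio of 5.04 (3.77 to 6.73). On the log2 scale this ratio of 2.33 was 4.24 without No Dox replicate 2 and 1.75 without No Dox replicate 3, so that 1 library largely set it. Its sums were not whole numbers, which means that RSEM shared some of its reads with other genes. AMIGO1 and AMIGO2 missed the threshold (edgeR adjusted p = 0.064 and 0.79).

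MUC19, a gel-forming mucin of salivary glands, had 17, 12 and 21 counts in No Dox and 61, 42 and 73 in Dox, a ratio of 3.54 (2.57 to 4.95). Its main isoform was the longest among the 48 genes, with 24829 bases, and held 87.8% of the counts in Dox. The level of the gene in Dox was 0.453 ± 0.17 TPM, which that isoform alone does not account for. MUC19-211 of 550 bases went from 0 to 10.85 counts over 3 samples. A few counts on so short an isoform weigh more in TPM, which is scaled for length. The gel-forming mucin genes MUC2, MUC5AC, MUC5B and MUC6 had between 1 and 13 counts over the 3 samples of either group and were not tested. CPAMD8, a relative of the complement proteins, had 4, 8 and 5.57 counts in No Dox and 25.7, 27.5 and 25 in Dox, a ratio of 4.48 (2.59 to 7.73), and its isoform CPAMD8-221 of 5985 bases went from 0 to 45.08 counts over 3 samples. GREM1, a secreted antagonist of bone morphogenetic proteins, had 9, 5 and 5 counts in No Dox and 17, 20 and 23 in Dox, which is exactly the 60 counts that the rule asked for.

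A motor, a scaffold and a kinase are encoded by a further 3 genes. MYO1A (ENSG00000166866.13), the class I myosin of the intestinal brush border, had 25.0, 9 and 16 counts in No Dox and 67, 52 and 63 in Dox, a ratio of 3.66 (2.66 to 5.11). Its full isoform MYO1A-201 of 3633 bases held 35.1% of the counts in No Dox and 71.6% in Dox. In contrast, the class I myosin genes MYO1C, MYO1D and MYO1E, which the cells used before induction, fell, with log2 fold changes of -0.20, -0.45 and -0.17 (edgeR adjusted p of 0.00024, 1.2e-08 and 0.0023). MYO1H, which also had few counts (42 in No Dox and 65.0 in Dox), did not pass the test (adjusted p = 0.12).

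FRMPD2, a scaffold protein with FERM and PDZ domains found at cell junctions, had 10, 8 and 5.53 counts in No Dox and 48.4, 45.5 and 42.7 in Dox, a ratio of 5.84 (3.70 to 9.27). Of its 14 isoforms, FRMPD2-201 held 23.5% of the counts in No Dox and 53.4% in Dox. ALPK2, an alpha kinase of heart, had 6, 8 and 8 counts in No Dox and 20, 13 and 38 in Dox, a ratio of 3.25 (1.99 to 5.50). The Dox samples of ALPK2 were far from even, with a coefficient of variation of 51.0%. Its relative ALPK1 rose from 2.55 ± 0.28 to 3.69 ± 0.025 TPM, with an edgeR log2 fold change of 0.56 (adjusted p = 2.3e-06), and ALPK3 did not pass the test (adjusted p = 0.52).

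A pair of genes of the germ line were switched on. MSH4 (ENSG00000057468.7) encodes a MutS homolog that stabilizes crossovers in meiosis. It had 10, 9 and 11 counts in No Dox and 49, 51 and 52 in Dox, a ratio of 5.10 (3.43 to 7.81), all in 1 isoform of 3270 bases. The samples of each group were nearly alike, and the groups were apart by 38 counts. MSH5, with which MSH4 forms a heterodimer, was already read in No Dox (4874 counts, and 5050 in Dox) and missed the threshold (edgeR adjusted p = 0.84). The mismatch repair gene MSH6 fell by 0.08 on the log2 scale (edgeR adjusted p = 0.012). TEX46, a gene named for its expression in testis, had 9, 3 and 7 counts in No Dox and 15, 31 and 21 in Dox, a ratio of 3.55 (2.11 to 6.25), and its transcript of 509 bases gave 1.56 ± 0.65 TPM in Dox.

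Both genes without a known product had sums that were not whole. C4orf50 (ENSG00000181215.15) had 4.56, 13.1 and 7.39 counts in No Dox and 152, 157 and 163 in Dox, a ratio of 18.9 (12.7 to 29.6). By counts it was second to AC136604.2 in Dox, but its isoforms of 12180 and 13296 bases made this 0.300 ± 0.026 TPM. TMEM272, by its symbol a membrane protein, had 21.9, 11.8 and 10.6 counts in No Dox and 67.7, 65.6 and 81.0 in Dox, a ratio of 4.88 (3.52 to 6.93).

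**Figure D3:**
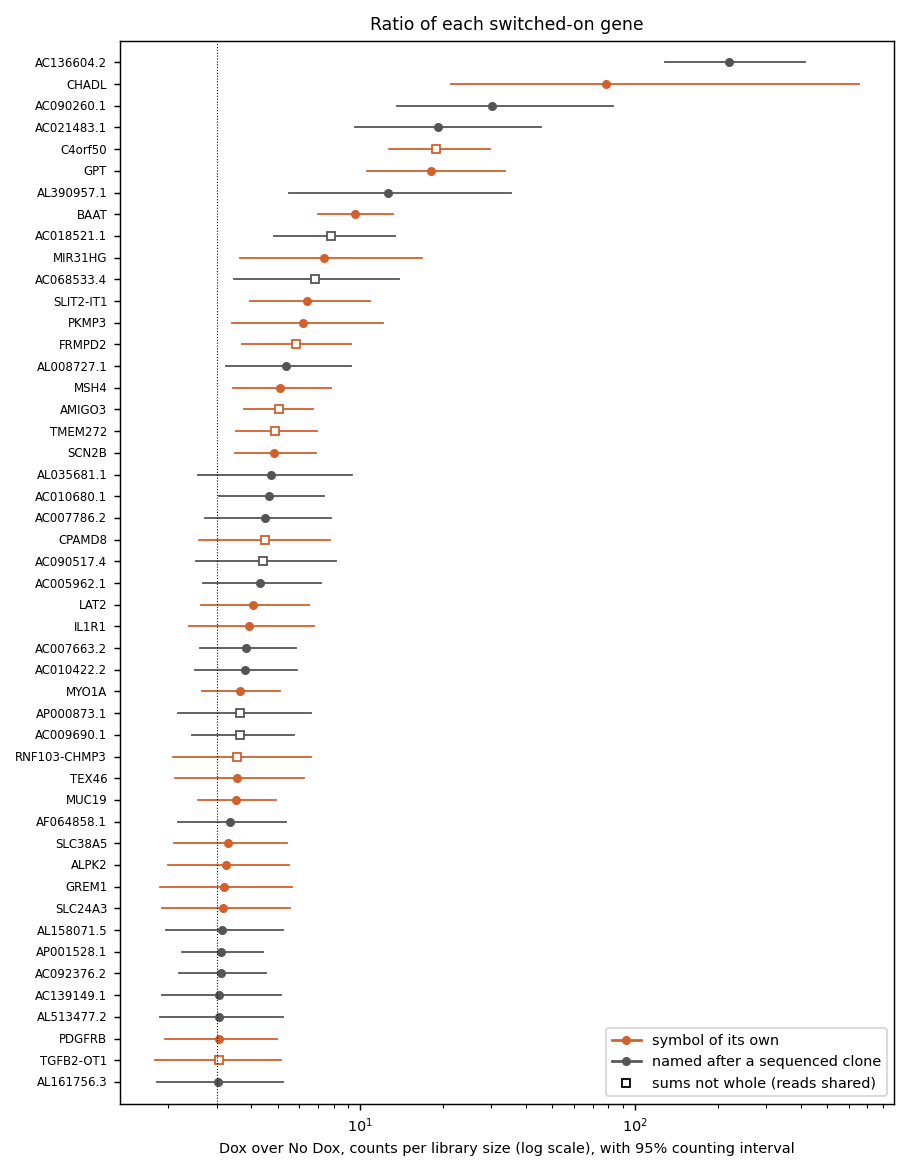
Ratio of counts per library total, Dox over No Dox (log scale), for the 48 switched-on genes with its 95% counting interval (lines), for genes with a symbol of their own, clone-named genes and genes whose sums are not whole (open squares). The dotted line marks the ratio of 3 that the rule required of the sums, and the ratio runs from 3.02 for AL161756.3 to 220 for AC136604.2.

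The names of 5 of the genes refer to another gene, and each was set beside that gene. SLIT2-IT1 (ENSG00000248228.1) is by its suffix a transcript within an intron of SLIT2, an axon guidance gene. It had 4, 7 and 9 counts in No Dox and 49, 39 and 39 in Dox, a ratio of 6.39 (3.97 to 10.8), and its 601 bases gave 2.29 ± 0.29 TPM in Dox. SLIT2 itself was abundant and did not pass the test, at 47.5 ± 0.92 and 48.4 ± 0.74 TPM, with an edgeR log2 fold change of -0.04 (adjusted p = 0.18). The sign of that value depended on the scaling and was 0.01 by library size alone.

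PKMP3 is a processed copy of PKM, the pyruvate kinase gene of most tissues. It had 3, 6 and 4 counts in No Dox and 25, 21 and 34 in Dox, a ratio of 6.19 (3.42 to 12.1). PKM had 407444 counts in No Dox and fell to 357741 in Dox (log2 fold change -0.23, edgeR adjusted p = 5.4e-07). The gene and its copy thus went in opposite directions. The sums of PKMP3 were whole in all 6 samples, but a pseudogene can hold reads of its parent, and this was not tested.

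TGFB2-OT1, named as a transcript that overlaps the growth factor gene TGFB2, had 0.57, 10.1 and 9.88 counts in No Dox and 28.1, 13.9 and 20.1 in Dox, a ratio of 3.05 (1.79 to 5.13). TGFB2 fell from 2.16 ± 0.33 to 1.71 ± 0.18 TPM, with an edgeR log2 fold change of -0.24 (adjusted p = 0.02), and that call was lost with DESeq2 (adjusted p = 0.072) and without No Dox replicate 1 (0.057), No Dox replicate 3 (0.056) or Dox replicate 1 (0.072). MIR31HG, the host transcript of the microRNA miR-31, had 1, 1 and 7 counts in No Dox and 26, 21 and 19 in Dox, a ratio of 7.38 (3.66 to 16.8), and its log2 ratio was 2.88 with all samples and 4.47 without No Dox replicate 3. The MIR31 hairpin was listed at 0 in all samples, which in libraries of mRNA says nothing about the microRNA.

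RNF103-CHMP3 joins the exons of a ubiquitin ligase gene to those of its neighbour, a gene of the ESCRT machinery that cuts membranes. It had 0, 11.9 and 5.32 counts in No Dox and 18.6, 15.9 and 26.3 in Dox, a ratio of 3.55 (2.08 to 6.59). Its log2 ratio was 1.83 with all samples, 1.22 without No Dox replicate 1 and 2.96 without No Dox replicate 2. Its counts were estimates by RSEM from reads shared with both genes. RNF103 rose (log2 fold change 0.15, edgeR adjusted p = 0.014) and CHMP3 fell (-0.18, adjusted p = 0.00025), both by little beside the joined transcript. The call of RNF103 was lost without No Dox replicate 1 (adjusted p = 0.057), No Dox replicate 2 (0.061) or Dox replicate 2 (0.053).

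Of the 48 genes, 23 are named after a sequenced genomic clone, a name given to genes without a symbol of their own, most of them noncoding. That is 47.9% of the 48. With the same names left out, the share was 47.2% of the 11883 genes with at most 60 counts in No Dox and any count in Dox, and 40.9% of the 479 of these with at least 60 counts in Dox. Of the 23, 17 have a single isoform. The length of the main isoform had a median of 1966 bases in the clone-named genes and 3377 in the other 25. The median log2 ratio was 2.10 and 2.16.

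After AC136604.2, the clone-named genes with the largest ratios were AC090260.1, AC021483.1 and AL390957.1. AC090260.1 (ENSG00000260988.1) had 2, 1 and 3 counts in No Dox and 57, 66 and 57 in Dox, a ratio of 30.2 (13.6 to 83.3). AC021483.1 (ENSG00000259548.1) had 1, 4 and 3 counts in No Dox and 53, 52 and 48 in Dox, a ratio of 19.2 (9.52 to 45.4). Its transcript is short, with 539 bases, and its level in Dox of 3.24 ± 0.29 TPM was second to that of AC136604.2. AL390957.1 had 2, 0 and 4 counts in No Dox and 19, 23 and 33 in Dox, a ratio of 12.6 (5.51 to 35.3). Its log2 ratio of 3.65 was 4.66 without No Dox replicate 3, and the most abundant of its 13 isoforms, AL390957.1-212, had 0 counts in No Dox and 33 in Dox.

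AC018521.1 had 3.79, 7.85 and 7.43 counts in No Dox and 43.7, 31.8 and 72.2 in Dox, a ratio of 7.79 (4.84 to 13.4). Its log2 ratio was 2.96 on the count scale and 1.20 on the TPM scale, at 0.247 ± 0.20 TPM in No Dox and 0.567 ± 0.20 TPM in Dox. The whole increase lay in its isoform of 2655 bases, which went from 7.43 to 140.4 counts over 3 samples, while that of 575 bases had 11.6 and 7.29 counts. AC068533.4 had 0, 10.6 and 0 counts in No Dox and 17.0, 23.5 and 31.6 in Dox, with sums that were not whole. Its log2 ratio was 2.77 with all samples, 2.17 without No Dox replicate 1 and 4.61 without No Dox replicate 2. The main isoforms of AP000873.1 (400 bases), AC010422.2, AC005962.1 and AL513477.2 were short, and that of AP001528.1 had 1223 bases. In that order these genes were at 2.28 ± 0.49, 1.90 ± 0.56, 1.52 ± 0.66, 1.31 ± 0.32 and 1.30 ± 0.10 TPM in Dox, with ratios between 3.06 and 4.30. Of these, AP000873.1 had its No Dox counts mostly in 1 sample, with 15.3, 2.78 and 0.08, and without No Dox replicate 1 its log2 ratio was 3.93 in place of 1.87. Apart from AC010680.1, given with its clone, the remaining 11 clone-named genes were AC092376.2, AC007663.2, AC009690.1, AL008727.1, AF064858.1, AC007786.2, AL158071.5, AC139149.1, AC090517.4, AL161756.3 and AL035681.1. Their counts summed to between 13 and 42 in No Dox and between 61 and 130 in Dox, with ratios from 3.02 for AL161756.3 to 5.35 for AL008727.1.

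Genes that share a clone in their names lie on the same cloned piece of the genome, so the other genes of each clone were examined as neighbours. There were 50 such genes for 17 of the 23, and 13 of them were at 0 in all samples. Of the 50, 15 passed the filter, and by edgeR 2 were higher, 2 were lower and 11 did not pass the test. Those with at least 30 counts over the 6 samples numbered 21, for 12 of the clones. Their log2 ratio had a median of 0.16 (-2.11 to 1.70), where that of all genes tested was 0.05. The rate was higher in Dox for 15 of the 21 and lower for 6. Of the 21, 2 had a ratio of 3 or more and 12 were within 0.5 of 0 on the log2 scale. The matching shares of all genes are not given here.

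The neighbours in name with the largest ratios belonged to the clones of AC018521.1 and AC092376.2. AC018521.5 rose from 10.3 ± 0.23 to 36.1 ± 1.3 TPM, with an edgeR log2 fold change of 1.56 (adjusted p = 1.2e-10) beside AC018521.1. AC092376.3, beside AC092376.2, had 9 counts in No Dox and 29 in Dox and was not tested. The opposite was seen for AC010680.1, which had 10, 6 and 11 counts in No Dox and 49, 37 and 39 in Dox, a ratio of 4.66 (3.05 to 7.35). AC010680.4 of the same clone had 26, 32 and 29 counts in No Dox and 4, 9 and 7 in Dox and was 1 of the 10 genes that met the mirrored rule. AC007663.4 fell (log2 fold change -0.93, edgeR adjusted p = 0.0025) beside the switched-on AC007663.2. AC090517.5 rose (0.71, edgeR adjusted p = 0.006), and its log2 ratio of 0.77 was below the 2.14 of AC090517.4. The sums of AC090517.4 and AC090517.5 were not whole numbers.

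**Figure D4:**
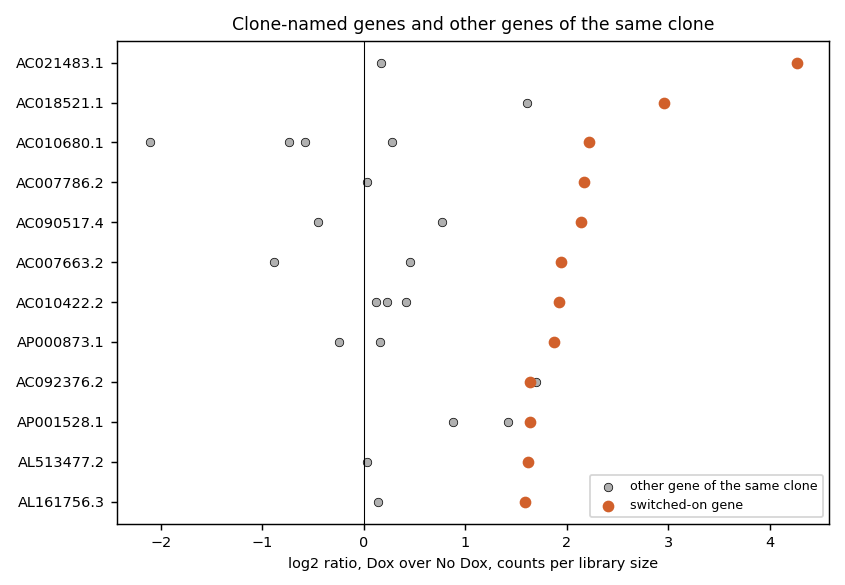
Log2 ratio of counts per library total, Dox over No Dox, for 12 clone-named switched-on genes (large points) and the 21 other genes of the same clones with at least 30 counts over the 6 samples (grey points). The grey points spread from -2.11 to 1.70 around a median of 0.16, and 2 of them lie at a ratio of 3 or more.

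RSEM gives whole counts to a gene when no other gene competes for its reads. The sums were within 0.05 of a whole number in all 6 samples for 36 of the 48 genes. The 12 others were C4orf50, AMIGO3, TMEM272, FRMPD2, CPAMD8, TGFB2-OT1, RNF103-CHMP3, AC018521.1, AC009690.1, AC068533.4, AC090517.4 and AP000873.1. Part of the counts of these genes was assigned by the model, and AMIGO3, RNF103-CHMP3, AC068533.4 and AC090517.4 are 4 of the 7 genes that had 0 in a No Dox sample. With the 12 left out, the median log2 ratio was 2. Whether RSEM was told the strand of the reads is not stated in the sources used, so reads of a gene and of a gene on the opposite strand may not have been told apart.

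The files list 188 isoforms for the 48 genes, and 111 of them had at least 1 count over the Dox samples. Of the 24 genes with more than 1 isoform, 14 had the same isoform on top in No Dox and in Dox. The other 10 were GPT, MYO1A, CHADL, CPAMD8, FRMPD2, SLC38A5, ALPK2, LAT2, AC018521.1 and AL390957.1, where the isoform that led in Dox had held between 0% and 39.0% of the No Dox counts. With so few No Dox counts these shares are rough, and SLC24A3, counted among the 14, had 10.0 counts in each of its isoforms in No Dox. The leading isoform was picked by its Dox counts, which favours a lower share in No Dox. The matching numbers for other genes are not given here. The main isoforms ranged from 400 to 24829 bases, with 13 under 1000 and 16 over 4000.

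Markers of other cell types and genes of common responses were examined beside the 48 genes, in 15 lists of 415 genes in all. Of the 415, 238 had at most 60 counts in No Dox. BAAT and GPT, on the liver list, met the rule, but they had been placed on that list with their values known, and MSH4 and TEX46 had not been placed on that of the germ line. Which lists hold a switched-on gene is therefore no finding, and what follows concerns the other listed genes.

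Of the 40 genes of the liver list, 34 were near silence in No Dox, 11 of these had 0 in all samples, and apart from BAAT and GPT the highest sum in Dox was 44 counts, of CYP3A4. CYP3A4, a cytochrome P450 that oxidizes drugs, went from 17 counts (edgeR log2 fold change 1.31, adjusted p = 0.035), and CPS1 of the urea cycle rose by 0.20 on that scale (adjusted p = 0.018). CYP2E1 and FOXA2 fell by 0.71 and 0.47 (adjusted p = 0.0029 and 0.0028). ALB, the gene of serum albumin, had 6 counts in No Dox and 23 in Dox, and TTR, that of transthyretin, was listed at 0. The summed level of the list was 12.1 to 15.2 TPM in No Dox and 15.4 to 16.3 TPM in Dox, and BAAT and GPT were part of that sum.

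The striated muscle list of 45 genes had 36 near silence. Of the 14 tested, 3 rose and 2 fell, where 24.9% of all genes tested rose and 26.5% fell. The rises included ACTN2, a Z-disc actinin that went from 5.16 ± 0.40 to 20.7 ± 1.0 TPM, with an edgeR log2 fold change of 2.20 (adjusted p = 2.6e-15), and LDB3 (1.29, adjusted p = 0.00029), and the falls were MYH3 and TNNT1 (-0.51 and -0.18). The neuron list of 52 genes had 25 near silence, and of the 30 tested 10 rose and 5 fell. MAP2 went from 1.55 ± 0.28 to 6.13 ± 0.11 TPM, with an edgeR log2 fold change of 2.14 (adjusted p = 6.7e-13) and the sodium channel gene SCN2A, whose product binds beta subunits such as that of SCN2B, rose by 1.96 (adjusted p = 2.1e-09), while CELF3 and CPLX2 fell by 1.05 and 0.87. These genes began above the limit of 60 counts. The germ line list of 34 genes, had 31 near silence, and of the 5 tested DMC1, the meiotic recombinase, alone rose, by 0.71 (adjusted p = 0.0042).

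Near silence in No Dox in the remaining lists were 5 of 16 glial genes, 15 of 23 of kidney epithelium, 22 of 26 of blood and immune cells, 7 of 10 of endothelium, 23 of 27 of keratin and the cornified envelope, 13 of 28 of the interferon response, 13 of 22 inflammatory cytokine genes, 12 of 31 genes of calcium channels and stores, 1 of 22 of the stress response, 0 of 25 p53 targets and 1 of 14 of the HEK293 line. Of all genes tested by edgeR, 24.9% were higher and 26.5% lower. Of the listed genes tested, those higher and lower were 6 and 2 of 12 for glia, 1 and 2 of 10 for kidney, 3 and 0 of 7 for blood, 3 and 1 of 5 for endothelium and 0 and 1 of 5 for keratin. They were 6 and 2 of 17 for interferon, 5 and 0 of 11 for cytokines, 13 and 1 of 21 for calcium, 7 and 8 of 21 for stress, 19 and 0 of 25 for p53 targets and 1 and 7 of 13 for the HEK293 line. A listed gene near the limits of the rule was RSAD2, an antiviral gene of the interferon response, with 0, 1 and 0 counts in No Dox and 24, 12 and 18 in Dox, 54 in all (edgeR adjusted p = 1.8e-05). KDR, the main receptor for vascular endothelial growth factor, went from 45 to 118 counts, less than 3 times (log2 fold change 1.35, edgeR adjusted p = 0.00052).

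**Figure D5:**
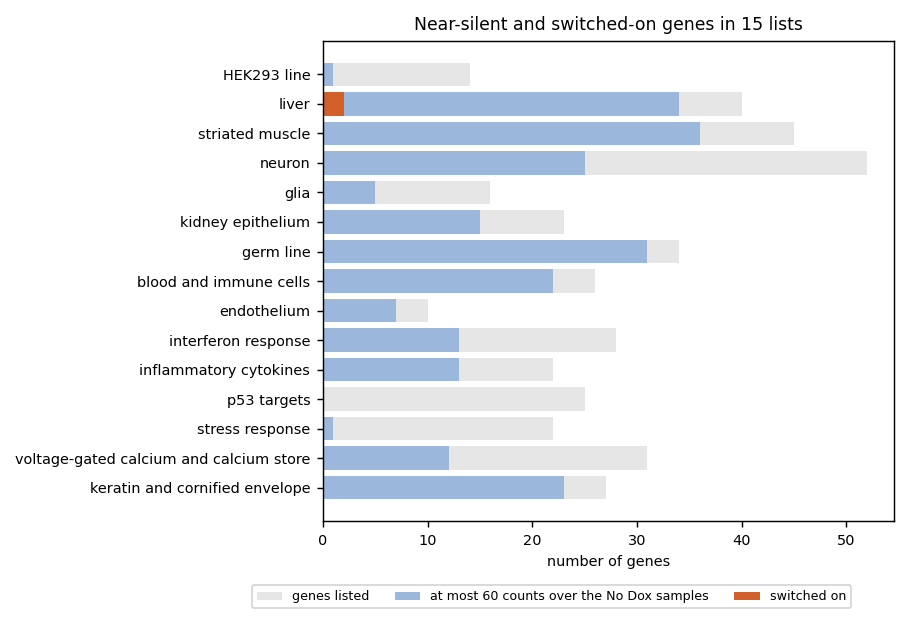
Number of genes in each of 15 lists (grey), those with at most 60 counts over the No Dox samples (blue) and those switched on by the rule (orange). The orange part is limited to the liver list, where it holds BAAT and GPT, which were placed there with their values known.

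The limits of the rule cut through a continuous spread. At the Dox minimum, GREM1 (60 counts) and RNF103-CHMP3 (60.8) lay just inside and HTR1DP1 (59) and CNGA4 (58) just outside. At the No Dox limit, AMIGO3 (58.5) and MUC19 (50) lay inside and PIGZ (61) and BST1 (66) outside, the last 2 with 289 and 244 counts in Dox. At the ratio of sums, AL161756.3 (3) and TGFB2-OT1 (3.03) lay inside and ST6GALNAC2 (2.99) and DOCK10 (2.96) outside. The gap between the lowest Dox and the highest No Dox sample was under 5 counts for 5 of the 48 genes and 10 counts or more for 35. The genes with gaps of a few counts thus met the rule by a small margin, while AC136604.2, C4orf50, GPT, AC090260.1, CHADL and AC021483.1 had at most 25.1 counts in No Dox, at least 153 in Dox and a ratio of at least 18.1.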

How the data were processed

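RNA-seq was performed on 6 samples of 77-5 cells. Per the labels and methods, libraries were made with a stranded mRNA kit, and the authors used cutadapt for trimming, STAR for mapping to the human genome (GRCh38) and RSEM for isoform estimates. Versions are not given in the sources used. The tables deposited by the authors hold expected counts (estimated fragments per isoform, not normalized), TPM values scaled for length and total, FPKM values (not used) and the isoform percent (not used, since shares were computed from the counts). Reads that fit several genes, such as paralogs, pseudogenes or overlapping genes, are divided by RSEM. No human annotation was used here, so no coordinates or sequences are given.

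Expected counts were summed per gene as deposited for the rule, and were rounded for edgeR 4.0.16 (TMM, filterByExpr, glmQLFit and glmQLFTest, two-sided, Benjamini-Hochberg over all genes tested, threshold 0.05) and DESeq2 1.42.0 in R 4.3.3. TPM was summed over isoforms. Ratios used library totals, with exact binomial intervals at 95% that cover counting error only (scipy 1.17.1). The fits were tested on simulated data. An exact permutation test of 3 samples against 3 cannot go below 0.1, so none was used.

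The genes and lists were chosen with earlier results of these data known. Genes were named when among the 12 highest in Dox counts, Dox TPM or ratio, when listed, named after another gene or of known product, and beside each limit of the rule. Of listed genes outside the rule, the 2 largest rises and falls are named for the liver, muscle, neuron and germ line lists. The relatives of the genes, the other genes of each clone, the partners RNF103, CHMP3 and MIR31, the roles, and any other gene named were chosen with their values in view. As alternatives, other limits, scalings, filters and tools, a replicate block, and the omission of each sample were tried. Some related genes are not reported here.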

Additional observations from a re-analysis of the deposited data

How the results depend on the processing

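The number of switched-on genes followed the limits of the rule. It was 48 as reported, 20 with a Dox minimum of 120 counts, 107 with a minimum of 30, 154 with a ratio of at least 2 and 17 with a ratio of at least 5. Under a No Dox limit of 30 or 120 counts it was 38 and 60, with sums scaled by TMM or by DESeq2 size factors 40 and 38, and leaving out each sample in turn gave 49 to 69 genes, of which 41 to 44 were among the 48. The mirrored rule gave 10 genes, 2 with a ratio of at least 5 and 26 with a ratio of at least 2. Leaving out each sample in turn gave 11 to 16, with 16 without Dox replicate 1, of which 8 were among the 10. The median log2 ratio of the switched-on genes stayed between 1.98 and 2.22 under the alternatives tried. The rule asked for a ratio of at least 3, which bounded this median from below, so nothing is read from its steadiness. The ratios of single genes moved more. Their log2 values are in brackets, and the factor of 1.5 refers to the ratios before the log2 was taken. Leaving out 1 No Dox sample changed by over 1.5 times the ratios of AP000873.1 (1.87 to 3.93), AMIGO3 (2.33 to 4.24), AC068533.4 (2.77 to 4.61), MIR31HG (2.88 to 4.47), RNF103-CHMP3 (1.83 to 2.96), AL390957.1 (3.65 to 4.66), GPT (4.18 to 5.08) and AC090517.4 (2.14 to 2.80). The TPM scale changed by over 1.5 times the ratios of AC018521.1 (2.96 to 1.20), AL035681.1 (2.24 to 1.35), PDGFRB (1.61 to 0.97), SLC38A5 (1.72 to 1.08), CHADL (5.71 to 5.12), MUC19 (1.82 to 2.50), GREM1 (1.67 to 2.26) and IL1R1 (1.97 to 2.56). Of the values of single genes recomputed under an alternative, 478 kept their call or stayed within their spread, 79 moved by more with the same sign, 8 lost their call (TGFB2 and RNF103) and 1, of SLIT2, changed sign.

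By library size alone, 60.2% of the changed genes were higher in Dox, against 48.4% with TMM, and all genes had a median log2 fold change of 0.05 against 0. The fold change of SLIT2 was then 0.01 in place of -0.04, neither past the test, and TGFB2 no longer passed it (adjusted p = 0.056). Same-numbered samples of the groups deviated together only weakly (correlations of 0.0407, 0.0280 and 0.0568 across genes, each the highest for its sample). All other pairs had negative correlations (-0.0384 to -0.00242). The main fit did not pair the samples, and whether the numbers pair them was not settled. With the replicate block, 9805 genes changed in place of 9384, and 120 listed genes in place of 115. Genes of this abundance rest on few reads per sample, so a difference of a few counts, or a few reads assigned by the model, decides whether they meet the rule.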
